A study of Homo sapiens with 46 samples.

Results

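The transcripts described here kept their level through the first day of neural conversion and were lost afterwards. They were followed in H1, a line of human embryonic stem cells, in which 69 rows of 63691 in the deposited annotation met the rule. A row is 1 annotated UCSC transcript model, and CPM is its count scaled to the total of the library. A row was a member when the mean CPM of the 2 shControl mRNA libraries, with 0.5 added, was at least 10 at the hES stage, when log2(ND1/hES) was above -0.5, and when log2(ND6/hES) was at most -2. That left 166 rows, and of each run of neighbouring passing rows the one with the most counts was kept. No further selection was needed, because fewer than 150 rows remained. The 69 rows lay in 63 groups of neighbouring rows whose counts run in proportion across the libraries, so 11 of them, in 5 groups, are linked to another member and may share reads with it. Members are ranked below from 1, the lowest log2(ND6/hES), to 69.

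The cells carried a lentiviral hairpin against KBTBD8 (shKBTBD8), against TCOF1 (shTCOF1) or a control hairpin (shControl), and all groups shared that infection. They were sampled undifferentiated in feeder-free mTESR1 medium (hES) or once neural conversion in NIM medium had run for 1, 3 or 6 days (ND1, ND3, ND6). A first set had 2 replicates of shKBTBD8 and 2 of shControl at each of the 4 stages, as mRNA libraries and as ribosome footprint libraries, 32 in all. A second set of 14 libraries had, for each of the assays, 1 hES and 1 ND3 library of shKBTBD8 and of shTCOF1, and 2 hES and 1 ND3 libraries of shControl. The labels do not say that replicates came from separate cultures, nor that an mRNA and a footprint library came from the same dish, so the p-values measure the spread between these libraries, which may be technical.

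Neural conversion takes stem cells out of the pluripotent state: transcripts that maintain pluripotency are shut off while those of the neural plate are switched on. KBTBD8 brings substrates to the ubiquitin ligase built on CUL3. Among the proteins modified in this way is TCOF1, a nucleolar protein needed for ribosome production. A ribosome footprint is the piece of mRNA that a translating ribosome protects from RNase I, so footprint counts follow both the amount of a message and how many ribosomes sit on it. In bulk samples, fewer cells with a transcript and less transcript per cell cannot be told apart.

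The files identify rows by UCSC identifiers without gene names, and 0 of those identifiers matched the reference tables used here. Members are therefore given by rank, apart from 4 identifiers, and neither the pathway and marker lists nor the levels of KBTBD8 and TCOF1 themselves could be read. The efficiency of the hairpins and the labelled cell type were thus not checked. Library totals ran from 34.3 to 57.4 M counts (M, mega) for mRNA and from 2.31 to 21.1 M for footprints in the first set, and from 24.0 to 62.4 and from 8.80 to 16.4 M in the second. Every member had counts in every mRNA library, whereas up to 19 of the 69 had none in a footprint library of the first set and up to 5 in one of the second. The library with 19 was shKBTBD8 ND6 replicate 2, also the shallowest footprint library. Differences were tested with edgeR's quasi-likelihood test on all groups of rows together, with Benjamini-Hochberg adjustment over all of them and a threshold of 0.05, and a row past that threshold is called higher or lower. A share of all rows given beside such calls refers to these calls, and not to members counted before adjustment or by DESeq2, unless stated.

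In the shControl mRNA libraries, whose hES, ND1 and ND6 values chose the members, the median member had 22.6 CPM at hES (range 9.73 to 610), 27.4 at ND1 (7.03 to 655), 4.79 at ND3 (0.103 to 127) and 2.42 at ND6 (0.0305 to 69.6). The plateau through ND1 and the low ND6 level are the rule itself and are not a finding. Within the limits it set, 44 of the 69 had a higher CPM at ND1 than at hES, 8 of them with log2(ND1/hES) of at least 1, and 28 stayed within 0.25 of 0 on that scale. These libraries chose the members, so nothing is read from the calls made in them: by edgeR 18 members were called higher and 3 lower at ND1 than at hES, beside 13.4% and 13.6% of all rows tested, and all 69 were called lower at ND6 than at hES, beside 29.5%. The ND6 fall spanned a wide range. In 8 members log2(ND6/hES) was -4 or lower, in 41 it lay between -3 and -2, and 15 members had less than 1 CPM left at ND6.

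Just inside the ND6 limit stood members with log2(ND6/hES) of -2.02 and -2.02, and just outside it rows with -1.99 and -1.98. At the ND1 limit the members just inside had log2(ND1/hES) of -0.495 and -0.493, and the rows just outside had -0.507 and -0.506. The lowest hES levels among members were 9.73 and 9.79 CPM before the addition of 0.5. Reading the limit of 10 CPM without that addition would leave 65 members.

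**Figure D1:**
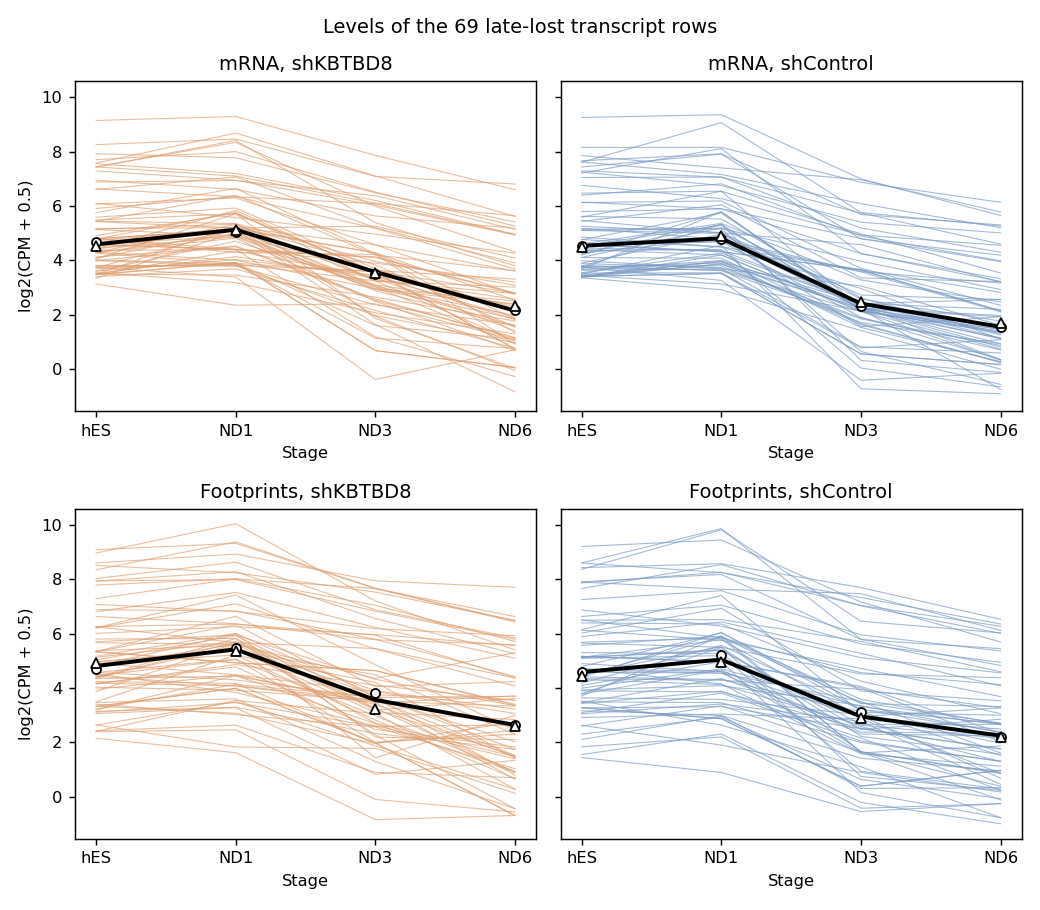
Levels of the 69 members by stage in the first set, as log2(CPM + 0.5), for mRNA (top) and footprints (bottom), with shKBTBD8 cells left of shControl cells; each thin line is the mean of the 2 libraries for 1 member, the black line is the median member, and the circle and triangle are the medians in replicates 1 and 2. All 4 panels keep their level to ND1 and drop at ND3 and ND6, and at ND3 the mRNA medians are higher in shKBTBD8 cells (10.7 and 11.2 CPM) than in shControl cells (4.53 and 4.96 CPM).

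The shControl ND3 libraries were not used by the rule, and most of the fall had been reached in them. At ND3 63 of the 69 members were at least 2-fold below hES, and 29 at least 4-fold, with a median log2(ND3/hES) of -1.86 (range -4.47 to -0.89, with 0.5 CPM added). The median member had completed 63.6% of its log2 fall to ND6 by ND3, with a range from 38.4% to 114.2%. In 19 members at least 80% of the fall was reached by ND3, and in 11 at most 50%. A further drop of at least 2-fold between ND3 and ND6 was seen in 31 members, and 4 had a higher CPM at ND6 than at ND3. Since high hES levels entered the rule, these ND3 values are given as a description.

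The members differed in shape. The lowest shares at ND3, 38.4%, 38.9% and 39.2%, belonged to ranks 44, 40 and 47, which are linked rows whose counts run in proportion and count as 1 case. Rank 36 had the highest share, 114.2%, with 2.43 and 2.46 CPM at ND3 and 3.28 and 3.29 CPM at ND6 in shControl cells. Rank 60 had the largest increase at ND1: its shControl libraries had 14.1 and 10.5 CPM at hES and 58.2 and 50.9 at ND1, then 4.16 and 3.63 at ND3 and 2.62 and 1.88 at ND6. This transcript therefore passed through a peak before it was lost, whereas rank 16, with 683 and 537 CPM at hES and 679 and 632 at ND1, stayed level and then stood at 106 and 148 CPM at ND3 and 42.9 and 56.4 at ND6.

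The deposited length value, whose unit is not stated, had a median of 527 among the members (quartiles 395 and 834), against 390 among all rows tested (207 and 664) and 449 among transcripts lost already at day 1. Those transcripts, chosen by the same rule with log2(ND1/hES) of at most -0.5, numbered 132 rows, of which 127 stood for separate groups of rows, and are used below as a comparison. The members' lengths ranged from 42 to 4948. The rule used counts not scaled to length and kept the row with the most counts in a run. Such a choice can favour longer rows, so nothing is read from the difference from all rows.

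The members were then followed in cells that the rule did not use. In shKBTBD8 mRNA of the first set 21 members rose at ND1 relative to hES and 1 fell, with a median log2 change of 0.27, beside 13.5% of all rows called higher and 13.8% called lower. At ND3 60 members had fallen relative to hES (median -1.32), beside 24.9% of all rows, and at ND6 all 69 had fallen (median -2.42, range -7.68 to -1.32), beside 29.3%. Relative to ND1, 57 members fell by ND3, beside 13.5% of all rows, and all 69 fell by ND6 (median -2.82), beside 23.3%. Between ND3 and ND6 58 fell and 1 rose, beside 8.34% and 8.59% of all rows. The member that rose was rank 9, which had 0.308 and 0.219 CPM at ND3 and 1.42 and 0.844 CPM at ND6 in shKBTBD8 cells, or 2.16 ± 0.36 higher on the log2 scale (SE; adjusted p = 0.000867 by edgeR).

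Ribosome footprints of the members were lower by ND3 and ND6 as well. In shControl footprint libraries 3 members rose at ND1 relative to hES and none fell, beside 1.07% of all rows higher and 0.514% lower. The 3 were ranks 3, 10 and 49. Before adjustment 13 members had p under 0.05, beside 1532 of the 16746 rows tested. DESeq2 called 6 members in either direction, beside 2.91% of all rows by DESeq2. With only the groups compared in the fit 11 rose, while 0 rose without ND1 replicate 1 and 1 without hES replicate 2. By ND3 41 members had fallen (median -1.93), beside 3.77% of all rows, and by ND6 62 had fallen (median -2.74, which is the same with the 1 member that had no ND6 footprint set to a floor of 3 counts over the group), beside 8.80%. The fitted change was negative in all 69 at ND6, while 51.8% of all rows had a positive one. In 68 of the members both ND6 libraries lay below both hES libraries, as they did in 28.7% of all rows. Relative to ND1, 59 members fell by ND6 (median -2.93), beside 5.42% of all rows.

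The 7 members whose footprint fall by ND6 did not pass the threshold also had negative values, and the smallest fall, -1.38, belonged to rank 67. In shKBTBD8 footprints 1 member rose at ND1 and 0 fell, beside 0.854% and 0.597% of all rows. Before adjustment 17 members had p under 0.05, beside 1703 of the 16746 rows tested. DESeq2 called 7 members, beside 3.85% of all rows by DESeq2. With only the groups compared 8 rose, while 0 rose without ND1 replicate 1, ND1 replicate 2 or hES replicate 2. By ND3 32 members had fallen (median -1.29), beside 4.13%, and by ND6 57 had fallen (median -2.40), beside 7.49%. The median share of the log2 fall to ND6 that was reached at ND3 was 51.2% in shKBTBD8 footprints and 67.1% in shControl footprints, and in mRNA it was 50.4% in shKBTBD8 cells and 63.0% in shControl cells.

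**Figure D2:**
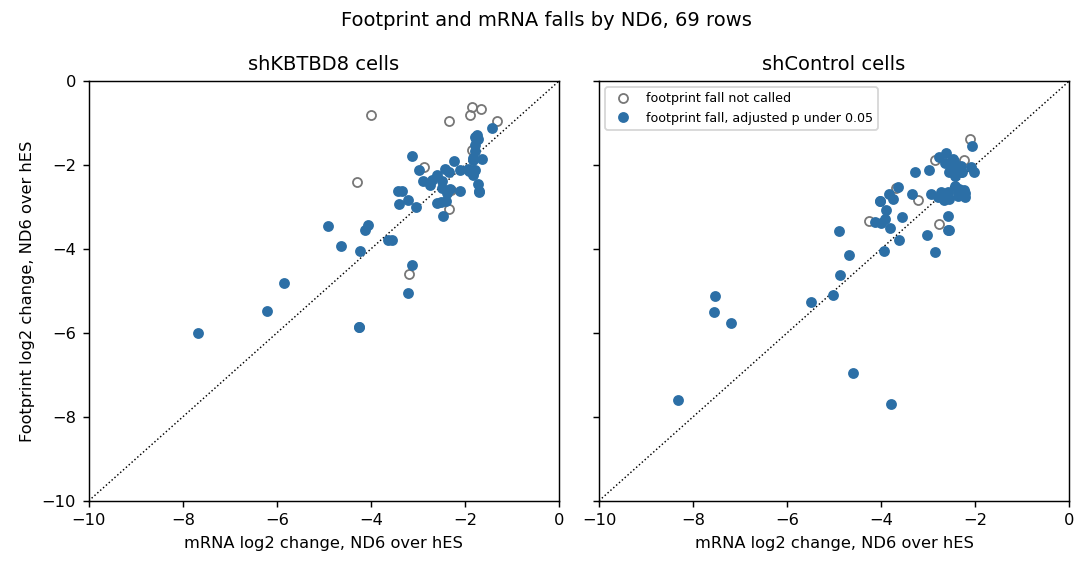
Footprint log2 change against mRNA log2 change from hES to ND6 for the 69 members, in shKBTBD8 cells (left) and shControl cells (right); filled points have a called footprint fall (57 and 62 members) and the dotted line marks equal change. The points follow the line, with median footprint changes of -2.40 in shKBTBD8 cells and -2.74 in shControl cells beside median mRNA changes of -2.42 and -2.79.

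Footprints were also set against mRNA. In a model over both assays, the footprint change from hES to ND6 relative to the mRNA change had a median of 0.10 on the log2 scale in shKBTBD8 cells and 0.27 in shControl cells, beside 0.03 and 0.04 over all rows. For the transcripts lost already at day 1 these medians were 0.22 in shKBTBD8 and 0.27 in shControl cells, so the shift was not particular to the members. In shKBTBD8 cells 1 member passed the threshold, rank 20, at 1.26 ± 0.29 (SE; edgeR adjusted p = 0.0227), beside 0.0396% of all rows higher. Leaving out the shKBTBD8 ND6 footprint replicate 1 turned the median to -0.28. That fit leaves replicate 2 alone in its group, the shallowest footprint library, in which 19 members had no counts. How far the call depended on single libraries is given in the closing section. In shControl cells none passed, beside 0.0509% of all rows higher and 1.25% lower, and here the mRNA libraries were those that chose the members. Before adjustment 9 members had p under 0.05, beside 1090 of the 17686 rows tested. DESeq2 called 2 members, beside 2.99% of all rows by DESeq2. Within pairs of single libraries, the log2 footprint to mRNA ratio of the median member lay between 0.15 and 0.47, above the median of all rows, which lay between -0.28 and 0.08. For the transcripts lost already at day 1 it lay between -0.10 and 0.68, and at ND6 in shControl cells it was 0.44 and 0.36 for the members, against 0.68 and 0.49 for those transcripts. The pairs match libraries of the same stage, hairpin and replicate number only. Before the log2 was taken, a count of 2, scaled to library size, was added. That count is a larger CPM in the shallower footprint libraries, so it raises the ratio of rows with few reads.

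Levels were then compared between shKBTBD8 and shControl cells stage by stage. The shControl hES and ND1 libraries entered the rule, so the values at these stages are descriptions. At hES 0 of the 69 differed in mRNA between shKBTBD8 and shControl cells, beside 0.0623% of all rows higher and 0.119% lower, and the median log2 change was 0.06. Before adjustment 3 members had p under 0.05, beside 1061 of the 17665 rows tested. DESeq2 called 0 members, beside 0.673% of all rows by DESeq2. At ND1 2 members were higher, ranks 32 and 54, beside 0.543% of all rows, with a median change of 0.17. Before adjustment 19 members had p under 0.05, 18 of them higher, beside 2155 of the 17665 rows tested in either direction. Both shKBTBD8 libraries lay above both shControl libraries at ND1 in 36 members, as they did in 24.2% of all rows, and below them in 8, as in 22.2%. Rank 54 had 25.8 and 29.4 CPM in shKBTBD8 cells, against 13.7 and 15.2 CPM in shControl cells at ND1, and its hES values were 17.1 and 20.9 CPM in shKBTBD8 cells, against 10.9 and 14.7 CPM in shControl cells. Leaving out any of the 4 ND1 libraries ended both ND1 calls.

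At ND3 46 of the 69 members were higher in shKBTBD8 mRNA and 0 were lower, beside 4.53% of all rows higher and 3.93% lower. The 46 lay in 41 groups of linked rows. The median log2 change over the 69 members was 0.89, against 0.00 over all rows. The change was positive in 66 of the members, beside 50.3% of all rows. In 58 members both shKBTBD8 libraries lay above both shControl libraries, as they did in 27.9% of all rows, and in 1 they lay below, as in 26.9%. The median member had 10.7 and 11.2 CPM in the shKBTBD8 libraries, against 4.53 and 4.96 CPM in the shControl libraries. Leaving out shControl ND3 replicate 1 left 26 members called, and leaving out any of the other 3 libraries left between 32 and 36.

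Transcripts lost already at day 1 gave 39 higher and 4 lower of 127 in the same comparison, 30.7% and 3.15%, with a median change of 0.28. The difference between these transcripts and the members was not tested. The change from hES to ND3 itself was smaller in shKBTBD8 than in shControl cells in 65 of the 69 members. The difference of the 2 changes was positive in these 65, beside 50.9% of all rows. It passed the threshold in 15, all of them higher, beside 0.968% of all rows higher and 0.594% lower. The median difference was 0.83. It contains the hES shControl libraries that entered the rule, and without shControl ND3 replicate 1 it passed in 8.

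**Figure D3:**
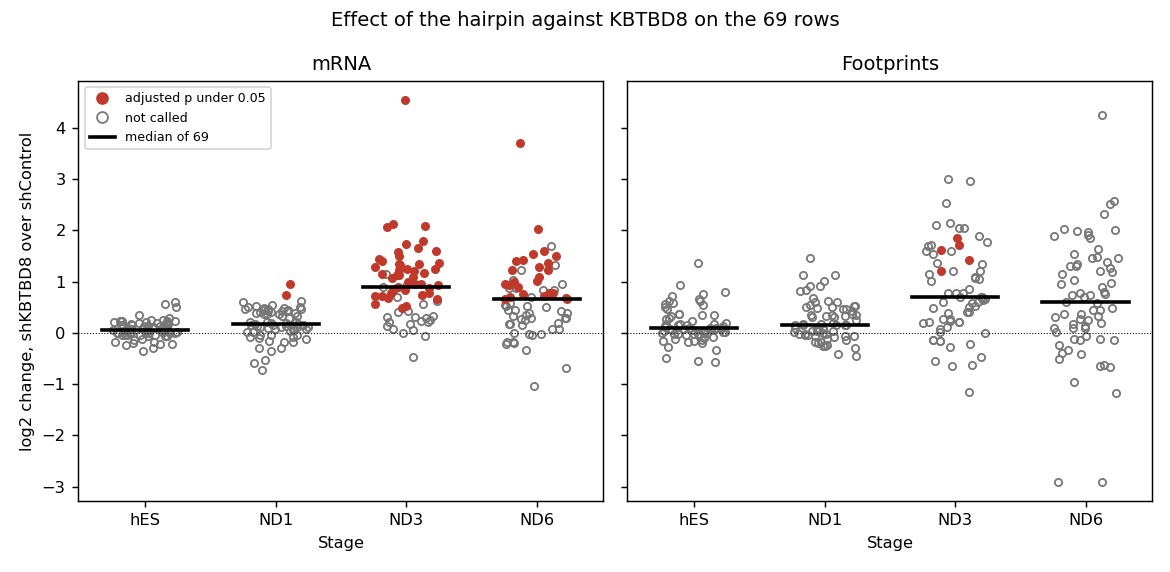
Log2 change of each of the 69 members in shKBTBD8 over shControl cells of the first set, by stage, in mRNA (left) and footprints (right); filled points passed an edgeR adjusted p of 0.05, open points did not, and the bar is the median. The mRNA medians are 0.06 at hES, 0.17 at ND1, 0.89 at ND3 and 0.67 at ND6, and the calls number 0, 2, 46 and 25.

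At ND6 25 members were higher in shKBTBD8 mRNA and 0 were lower, beside 2.11% of all rows higher and 1.91% lower, with a median change of 0.67. The shControl ND6 libraries chose the members for low values, so this comparison is a description. With only the groups compared in the fit 9 members were called. The count also rests on single libraries: 3 members were called without shControl replicate 1, 14 without shControl replicate 2 and 13 without shKBTBD8 replicate 2. Transcripts lost already at day 1 gave 25 higher and 4 lower of 127 at ND6, 19.7% and 3.15%, with a median change of 0.52, and the difference from the members was not tested. Of the members called, 23 were called at both ND3 and ND6, which is 50% of the ND3 list and 92% of the ND6 list. The difference of the change from hES to ND6 passed in 4 members, with ranks 3, 8 and 29 higher and rank 54 lower, beside 0.425% and 0.442% of all rows.

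In footprints the same comparison at ND3 gave 5 members higher and 0 lower in shKBTBD8 cells, beside 0.191% and 0.113% of all rows. The median change was 0.69, against -0.06 over all rows, with positive values in 58 of 69, beside 46.1% of all rows. Both shKBTBD8 libraries lay above both shControl libraries in 38 members, as in 14.1% of all rows. With only the groups compared in the fit 0 members were called, and DESeq2 called 13, beside 0.964% of all rows by DESeq2. The 5 were ranks 10, 15, 17, 28 and 49, and all 5 were also higher in mRNA. Among the 46 members higher in mRNA, 45 had a positive footprint change, with a median of 0.95. The number called in footprints was 3 without shControl replicate 1, 2 without shKBTBD8 replicate 2, all of them higher, and without shKBTBD8 replicate 1 it was 13 higher and 2 lower. Over the 69 members the mRNA and footprint changes at ND3 had a Spearman rho of 0.62, given as a description, since rows are not replicates and share libraries.

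At the other stages no member was called in footprints, in which few simulated 2-fold changes were recovered, as given in the processing section. At hES the median change was 0.09, and 0% of all rows were called higher or lower. Before adjustment 0 members had p under 0.05 there, beside 201 of the 16746 rows tested, and DESeq2 called 0 members. At ND1 the median change was 0.15, and 0% of all rows were called higher and 0.0119% lower. Before adjustment 4 members had p under 0.05 there, beside 304 of the 16746 rows tested, and DESeq2 called 0 members. At ND6 the median change was 0.60, or 0.59 with the member lacking footprints in shControl cells at the floor of 3 counts. Of all rows 0.0119% were called higher there and 0% lower. Before adjustment 22 members had p under 0.05, beside 815 of the 16746 rows tested. DESeq2 called 4 members, beside 0.266% of all rows by DESeq2. Without shKBTBD8 replicate 1, 6 members were higher and 2 lower at ND6. At ND1 both shKBTBD8 libraries lay above both shControl libraries in 27 members, as they did in 17.7% of all rows, and below them in 6, as in 17.5%.

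Rank 15 had the largest footprint difference among the 5 called in both assays. Its mRNA stood at 18.3 and 18.6 CPM in shKBTBD8 cells, against 4.16 and 4.32 CPM in shControl cells at ND3, which is 2.13 ± 0.22 on the log2 scale (SE; adjusted p = 2.66e-05 by edgeR). Its footprints stood at 31.9 and 24.9 CPM in shKBTBD8 cells, against 10.4 and 5.71 CPM in shControl cells, a change of 1.85 ± 0.36 (SE; edgeR adjusted p = 0.0193). By ND6 its mRNA was at 2.57 and 1.48 CPM in shKBTBD8 cells, against 3.47 and 3.33 CPM in shControl cells, a log2 change of -0.68, given as a description because the shControl ND6 libraries chose the members.

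Rank 10 had 51.1 and 31.3 CPM of mRNA in shKBTBD8 cells, against 18.4 and 18.5 CPM in shControl cells at ND3, and 182 and 111 CPM of footprints in shKBTBD8 cells, against 54.6 and 55.3 CPM in shControl cells. Rank 49 had 154 and 120 CPM of mRNA in shKBTBD8 cells, against 55.9 and 51.2 CPM in shControl cells, and 191 and 215 CPM of footprints in shKBTBD8 cells, against 75.8 and 98.5 CPM in shControl cells. The groups did not overlap in either assay for these 2 transcripts. Both had also risen at ND1 in shControl footprints, rank 10 to 1030 and 827 CPM at ND1, against 343 and 433 CPM at hES.

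Members differed in direction and in whether they passed the threshold. Rank 66 had 82.4 and 95.0 CPM in shKBTBD8 mRNA, against 115 and 134 CPM in shControl mRNA at ND3, the only member whose shKBTBD8 libraries both lay below, with a log2 value of -0.48 ± 0.20 for the difference (SE; adjusted p = 0.170 by edgeR). Rank 46 had 37.0 and 35.3 CPM in shKBTBD8 cells, against 30.7 and 27.7 CPM in shControl cells, a change of 0.32 ± 0.13 that did not pass (SE; edgeR adjusted p = 0.158). Rank 16, the row with the most reads at hES, had 214 and 248 CPM in shKBTBD8 cells, against 106 and 148 CPM in shControl cells (log2 change 0.88 ± 0.22, SE; edgeR adjusted p = 0.0218). The groups did not overlap in any of these 3 rows.

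The row uc001usb.3, rank 1, fell furthest in shControl cells under the rule. Its mRNA in shKBTBD8 cells had 34.9 and 35.8 CPM at hES and 38.6 and 34.2 at ND1, then 3.65 and 3.00 at ND3 and 0.480 and 0.437 at ND6. In shControl cells it had 30.8 and 37.0 CPM at hES and 38.2 and 31.8 at ND1, then 0.994 and 1.12 at ND3 and 0.131 and 0.216 at ND6. The groups overlapped at hES and ND1 and were apart at ND3 and ND6. The log2 change in shKBTBD8 over shControl was 1.66 ± 0.19 at ND3 (SE; edgeR adjusted p = 7.64e-05) and, as a description, 1.42 ± 0.35 at ND6 (SE), where the shControl libraries chose the members. Its footprints at ND3 were at 5.92 and 12.2 CPM in shKBTBD8 cells, against 1.83 and 3.45 CPM in shControl cells, a change of 1.70 ± 0.40 that did not pass (SE; edgeR adjusted p = 0.0812). By DESeq2 and in other settings that call changed, as given in the closing section.

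The row uc003xym.3, rank 3, peaked at ND1. In shKBTBD8 mRNA it had 26.0 and 15.9 CPM at hES and 51.3 and 61.9 at ND1, then 11.4 and 10.8 at ND3 and 1.46 and 0.903 at ND6. In shControl mRNA it had 22.5 and 12.9 CPM at hES and 49.1 and 60.4 at ND1, then 3.79 and 4.43 at ND3 and 0.0656 and 0.118 at ND6. The rise at ND1 relative to hES was 1.42 ± 0.27 in shKBTBD8 mRNA (SE; edgeR adjusted p = 0.00133) and 2.09 ± 0.47 in shControl footprints (SE; edgeR adjusted p = 0.0164). At ND3 its mRNA was higher in shKBTBD8 cells by 1.44 ± 0.29 (SE; edgeR adjusted p = 0.00551), a call that was lost without shControl replicate 1 (1.34; adjusted p = 0.0878). This row takes the place of rank 2, which is linked to rank 1, a replacement made after the values were seen.

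The row uc003xnm.3, rank 4, had the largest ND3 difference. Its shKBTBD8 mRNA libraries had 13.6 and 11.8 CPM at hES and 37.5 and 31.2 at ND1, then 2.54 and 2.64 at ND3 and 0.0576 and 0.0582 at ND6. Its shControl libraries had 11.8 and 9.69 CPM at hES and 25.1 and 20.6 at ND1, then 0.0462 and 0.160 at ND3 and 0.0219 and 0.0392 at ND6. The ND3 values in shControl cells rest on 2 and 9 counts, and the fitted log2 change there was 4.54 ± 0.34 (SE; edgeR adjusted p = 4.07e-06). That SE was worked back from the test statistic, so with so few counts it does not measure how uncertain the size is. At ND6 the shControl libraries held 1 and 2 counts, and no fold is given. Its ND3 footprints were 4.80 and 3.80 CPM in shKBTBD8 cells, against 1.22 and 0 CPM in shControl cells, a change that did not pass (edgeR adjusted p = 0.0707).

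The row uc003zdc.3, rank 8, kept most of its hES level to ND3 in shKBTBD8 cells of the first set. Its mRNA there had 29.1 and 22.8 CPM at hES and 29.9 and 41.4 at ND1, then 18.6 and 19.1 at ND3 and 2.94 and 3.20 at ND6. In shControl cells it had 24.7 and 20.4 CPM at hES and 25.5 and 28.5 at ND1, then 4.67 and 4.32 at ND3 and 0.852 and 0.686 at ND6. The change from hES to ND3 in shKBTBD8 cells was -0.44 ± 0.17 (SE; edgeR adjusted p = 0.0480), a call that was lost without hES shKBTBD8 replicate 1 (-0.22; adjusted p = 0.400), and without either ND3 replicate. The difference between shKBTBD8 and shControl cells was 2.08 ± 0.19 at ND3 (SE; edgeR adjusted p = 1.03e-05) and, as a description, 2.02 ± 0.24 at ND6 (SE). Footprints at ND3 were 21.4 and 22.4 CPM in shKBTBD8 cells, against 9.995 and 4.72 CPM in shControl cells, without passing the threshold (edgeR adjusted p = 0.243). In the second set, with 1 shKBTBD8 library a stage, its mRNA had 14.3 CPM at hES and 4.39 CPM at ND3. Most of the hES level was thus not kept there.

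**Figure D4:**
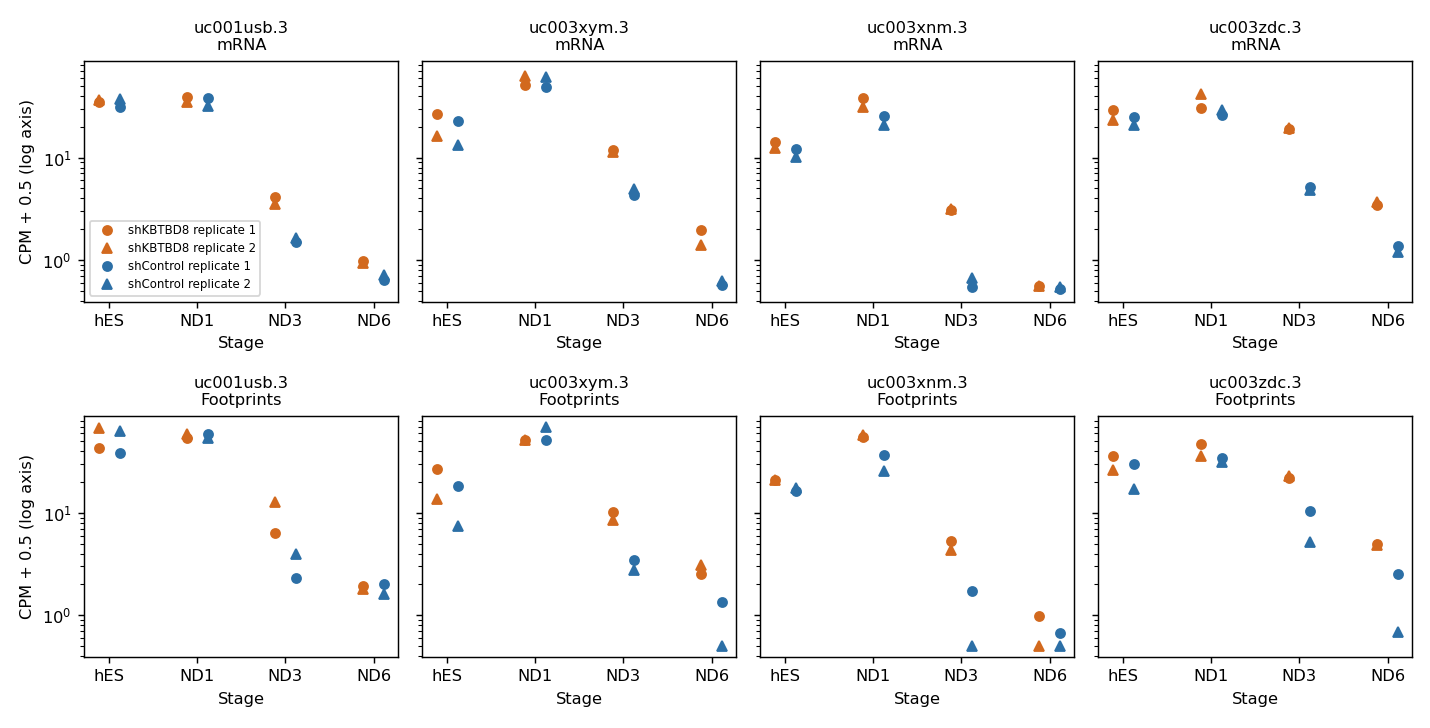
CPM + 0.5 on a log axis at each stage for the 4 named rows, in mRNA (top) and footprints (bottom) of the first set, with each library as a point for shKBTBD8 and shControl cells, replicates 1 and 2. In mRNA at ND3 both shKBTBD8 points lie above both shControl points in every one of the 4 rows, for example 18.6 and 19.1 against 4.67 and 4.32 CPM for uc003zdc.3.

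The second set, whose libraries the rule did not use, also had lower levels of the members at ND3 than at hES. Over its 3 hairpins together, 66 of the 69 members fell in mRNA between hES and ND3 (median log2 change -1.73), beside 31.3% of all rows, and 54 fell in footprints (median -1.70), beside 8.98%. In its shControl libraries alone, by a model of both sets, 62 fell in mRNA, beside 16.3% of all rows, with a median of -1.89. The row uc001usb.3 had 0.930 CPM in shKBTBD8, 2.45 CPM in shTCOF1 and 0.942 CPM in shControl mRNA at ND3, and 27.5 CPM in shKBTBD8, 37.2 CPM in shTCOF1, and 39.6 and 43.1 CPM in shControl mRNA at hES.

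In the second set the members did not move in 1 direction at ND3 under the hairpin against KBTBD8. The median member had 4.91 CPM in the shKBTBD8 library, against 4.79 CPM in the shControl library at ND3. The median log2 change was -0.14, with positive values in 28 of 69, beside 50.5% of all rows. By the model of both sets 0 members were called, with 13 below 0.05 before adjustment and 0 by DESeq2, beside 0.0792% of all rows higher and 0.226% lower. Single members differed from the median: uc003zdc.3 had 4.39 CPM in shKBTBD8 cells, against 2.40 CPM in shControl cells (log2 change 0.84 ± 0.27, SE; edgeR adjusted p = 0.397). The row uc003xym.3 had 3.08 CPM in shKBTBD8 cells, against 2.58 CPM in shControl cells, and uc003xnm.3 had 0.353 CPM in shKBTBD8 cells, against 0.165 CPM in shControl cells. Rank 10 had 42.4 CPM in shKBTBD8 cells, against 22.7 CPM in shControl cells (0.86 ± 0.25, SE; edgeR adjusted p = 0.268). Each of these ND3 groups is a single library, assumed in the model to vary like the replicated groups. The shKBTBD8 change at ND3 in the second set minus that in the first had a median of -1.03 and passed the threshold in 15 members, all negative, beside 0.753% of all rows higher and 0.894% lower. Without single first-set ND3 libraries that number was 3 (shControl replicate 1), 5 (shKBTBD8 replicate 1) and 7 (shKBTBD8 replicate 2). At hES the same difference between sets had a median of -0.24 and 0 calls, with 8 members below 0.05 before adjustment and 2 by DESeq2, beside 0.238% and 0.0113% of all rows.

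The shTCOF1 library at ND3 stood above its control. The median member had 6.998 CPM in shTCOF1 mRNA, against 4.79 CPM in shControl mRNA. The median log2 change was 0.42, against 0.00 over all rows, with positive values in 60 of 69, beside 50.4% of all rows. No member passed the threshold, with 23 below 0.05 before adjustment and 4 by DESeq2, beside 0.0226% of all rows higher and 0.0509% lower. The row uc003xym.3 had 11.2 CPM in shTCOF1 cells, against 2.58 CPM in shControl cells (log2 change 2.10 ± 0.45, SE; edgeR adjusted p = 0.117). The row uc003zdc.3 had 6.62 CPM in shTCOF1 cells, against 2.40 CPM in shControl cells (1.46 ± 0.27, SE; edgeR adjusted p = 0.0578). Between the hairpins, 4 members were higher in shTCOF1 than in shKBTBD8 cells at ND3, ranks 1, 2, 3 and 52, beside 0.622% of all rows, with a median change of 0.46 and DESeq2 calling 11. Ranks 1 and 2 are linked, so the 4 stand for 3 groups, and each hairpin has 1 library here, with its spread taken from the replicated groups.

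At hES 0 members were called for shTCOF1 against shControl in mRNA of the second set (median change 0.01), with 6 below 0.05 before adjustment and 0 by DESeq2, beside 0% of all rows. For shKBTBD8 against shControl at hES 1 member, rank 25, was higher, beside 0.809% of all rows, and the median change was -0.21. That call was lost without either shControl replicate, and without replicate 1 another member was called lower. The second-set mRNA change for shKBTBD8 at hES was negative in 59 of the 69 members and positive in 10, while 48.4% of all rows were positive. The difference between the sets in that change was negative in 63 members and positive in 6, while 48.8% of all rows were positive. Transcripts lost already at day 1 had a median of -0.31 for the change, against -0.21 for the members. For the difference between the sets their median was -0.39, against -0.24, so neither shift was particular to the members. In footprints at ND3 the median change was 0.33 for shTCOF1 and -0.14 for shKBTBD8, each against shControl. In these comparisons 0 members were called, with 14 for shTCOF1 and 21 for shKBTBD8 below 0.05 before adjustment and 1 each by DESeq2, beside 0.0287% and 0.103% of all rows higher. Up to 5 members had no footprint in a group compared here, and with those at the floor of 3 counts the medians were 0.33 and -0.14.

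**Figure D5:**
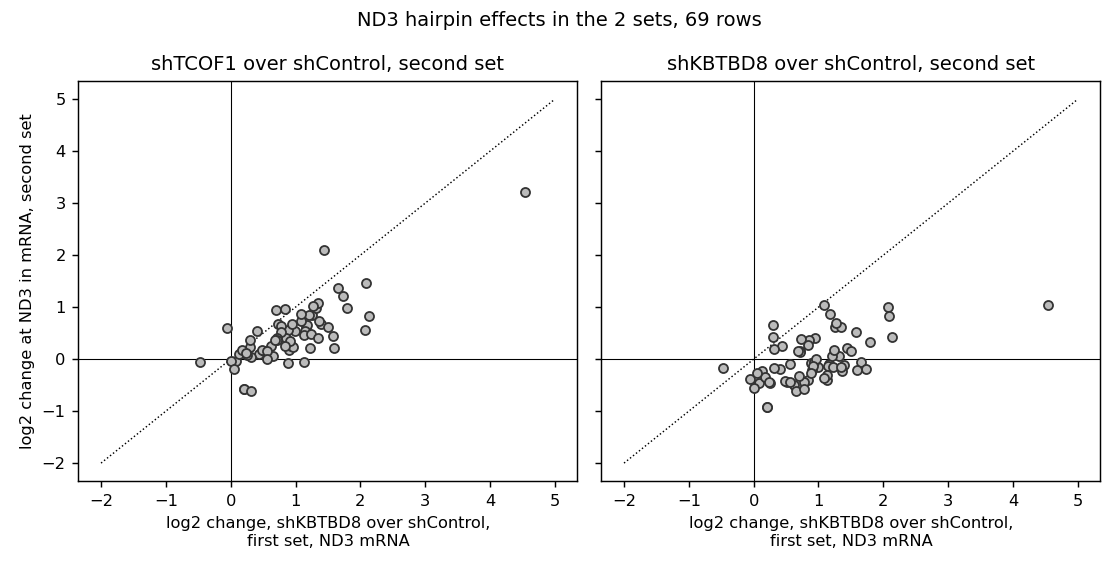
ND3 mRNA log2 change in the second set against the shKBTBD8 over shControl change in the first set for the 69 members, for shTCOF1 over shControl (left) and shKBTBD8 over shControl (right); solid lines mark 0 and the dotted line marks equal change. Most points lie above 0 on the left (60 of 69) and spread around 0 on the right (28 of 69), and the change in the second set is the smaller one in 66 of 69 members on the right.

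The order of the members was compared between the sets. Over the 69 members the first-set shKBTBD8 change at ND3 had a Spearman rho of 0.72 with the second-set shTCOF1 change and of 0.53 with the second-set shKBTBD8 change. With the second-set shControl change from hES to ND3 it had a rho of -0.53, so members that fell further in those cells tended to have the larger shKBTBD8 change in the first set. Each rho compares the 2 sets, whose libraries are separate, but it rests on 69 rows that share few libraries and include linked rows. The rho values are descriptions. All the second-set changes used, that of shControl included, contain the same single shControl ND3 library, so the rho values are not independent of each other.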

How the data were processed

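The authors deposited, for each of 46 libraries, a table of 63691 rows with a UCSC transcript identifier, a length value of a unit not stated (used here only as an unscaled number, unit other) and raw counts, per the values in the files. Per the submitters' processing notes, CASAVA 1.8, Bowtie2 2.0.6 and TopHat2 2.0.7 were used with the hg19 build; which tool counted reads, whether strand was used and how reads with several matches were treated is not given in the sources used here. Neighbouring transcript models often held counts that ran in proportion across libraries. Of neighbouring rows (within 20 rows) whose counts departed from proportion by a chi-square per degree of freedom under 2, 1 row stood for the group, which gave 17680 groups of mean count 10 or more, and 17686 with members standing for theirs.

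Members, comparison set and lists were chosen with earlier results of these data known. CPM were computed over all rows of a file. Tests used edgeR 4.0.16 in R 4.3.3 (TMM, filterByExpr, quasi-likelihood, 1 model per assay and set with a term per stage and hairpin, both assays together for footprints relative to mRNA). The second set was fitted with additive stage and hairpin terms. Each SE given is the absolute log2 change divided by the square root of the F statistic of its edgeR test. It is not a separate estimate of error. The model of both sets and the ND3 difference of changes were added after the data were seen. The method was tested on simulated data with changes of known size, for shKBTBD8 ND6 against hES. At a true log2 change of 1 it recovered 99% in mRNA, 12% in footprints and 6% for footprints relative to mRNA. At a true log2 change of 2 it recovered 100%, 86% and 81%. A missing footprint call therefore does not show that a 2-fold change was absent. The simulation used a fixed spread for each assay and changed only rows above a limit on the mean count. Recovery of noisier rows, or of rows with fewer reads, may be lower in these data. Alternatives were DESeq2 1.42.0, RLE size factors, no filter, ungrouped rows, only the groups compared, a replicate block, leaving out single libraries, 65 members under the stricter reading of the hES limit, and 1 row per linked group, the last 2 chosen after the data were seen. Identifiers to print were the 2 lowest by log2(ND6/hES), with the exception given, and the 2 with the smallest p for a higher ND3 mRNA level in shKBTBD8 cells. The pathway and marker lists could not be applied without gene names. No further columns of other samples were in the files. Intervals of count error are not given for single CPM values; the spread shown is that between libraries.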

Additional observations from a re-analysis of the deposited data

Results flagged for a closer look

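The change from hES to ND3 in mRNA differed between shKBTBD8 and shControl cells, by the test of that difference, in 15 members, among them uc001usb.3 (1.60 on the log2 scale), uc003xnm.3 (4.30) and uc003zdc.3 (1.88). The uc003xnm.3 value rests on shControl ND3 levels of 0.0462 and 0.160 CPM, near the floor, so its size is uncertain. The change from hES to ND6 differed in 4 members, among them uc003xym.3 (3.47) and uc003zdc.3 (1.82). The uc003xym.3 value likewise rests on shControl ND6 levels of 0.0656 and 0.118 CPM. This ND6 difference contains the shControl hES and ND6 libraries that chose the members. The shKBTBD8 change at ND3 differed between the second and the first set in 15 members, among them uc001usb.3 (-1.72, lower in the second set).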

How the results depend on the processing

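No called value of the 4 identifiers changed its sign, but 2 list medians did: footprints relative to mRNA in shKBTBD8 cells at ND6 (0.10) stood at -0.28 without shKBTBD8 ND6 footprint replicate 1, and second-set shTCOF1 footprints in the additive fit (0.13) at -0.01 without the ND3 shTCOF1 library. The first of these fits leaves the shallowest footprint library alone in its group. The cause of the changes below was not tested. Shares of all rows are given here for DESeq2 in the first set only. DESeq2 called 28.2% of all rows, in either direction, at ND1 relative to hES in shKBTBD8 mRNA. For shKBTBD8 against shControl it called 2.64% in mRNA at ND1, and 0.964% at ND3 and 0.266% at ND6 in footprints. For footprints relative to mRNA at ND6 it called 1.94% in shKBTBD8 and 2.99% in shControl cells. The difference of the ND3 change gave 2.93%. Relative to the reported counts of members, DESeq2 gave 2 lower at ND1 in shKBTBD8 mRNA (reported 1), 4 for shKBTBD8 against shControl mRNA at ND1 (2), 13 at ND3 (5) and 4 at ND6 (0) in footprints, and 2 in each hairpin for footprints relative to mRNA at ND6 (1 in shKBTBD8 and 0 in shControl cells). It gave 24 for the difference of the ND3 change (15), 3 for second-set shKBTBD8 at hES, 1 higher and 2 lower (1 higher), 2 for the difference between sets at hES (0), 4 for shTCOF1 at ND3 (0) and 11 for shTCOF1 against shKBTBD8 (4). In second-set footprints at ND3 it gave 1 for shKBTBD8, 1 for shTCOF1 and 3 for the difference between sets (0 each). With only the groups compared in the fit, 9 members were called at ND6 in mRNA (25), 1 at ND1 (0) and 0 at ND3 (5) in footprints, and 0 for footprints relative to mRNA in shKBTBD8 cells (1). Rises at ND1 in footprints numbered 11 with only the groups compared, 6 by DESeq2 and 6 with the block in shControl cells (3), and 8, 7 and 6 in shKBTBD8 cells (1), with 2 there for ungrouped rows. In shKBTBD8 mRNA 1 member was higher at ND3 than at hES with the block (0). For shKBTBD8 against shControl mRNA, 1 member was called lower at ND1 by DESeq2, with the block and with only the groups compared, and at ND6 by DESeq2, with the block and for ungrouped rows (0 each). RLE size factors gave 1 for footprints relative to mRNA in shControl cells (0). Without a filter, or with ungrouped rows, 1 member was called for shTCOF1 in footprints (0), and the stricter hES limit gave 0 for second-set shKBTBD8 at hES (1).

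Leaving out 1 library at a time gave 26 to 36 calls for shKBTBD8 against shControl mRNA at ND3, 0 at ND1 and 3 to 18 at ND6, 2 to 15 at ND3 and 0 to 8 at ND6 in footprints, 1 to 2 lower at ND1 in shKBTBD8 mRNA, 0 to 8 in shKBTBD8 and 0 to 1 in shControl cells for footprints relative to mRNA, 8 to 15 for the difference of the ND3 change, and 0 to 2 rises in shControl and 0 to 1 in shKBTBD8 footprints at ND1. Without shKBTBD8 replicate 1 the footprint calls split into 13 higher and 2 lower at ND3 and 6 higher and 2 lower at ND6, and without hES shControl replicate 1 the second-set shKBTBD8 call at hES was 1 lower. Without shKBTBD8 ND6 replicate 1 or 2, 1 member was lower at ND6 in mRNA, and without hES shKBTBD8 replicate 1, 1 was higher at ND3 than at hES. In footprints the difference between sets split into 2 higher and 3 lower without first-set shKBTBD8 replicate 1. For the difference between sets it gave 3 to 12 in mRNA and 0 to 5 in footprints at ND3 and 0 to 1 at hES, and 0 to 1 for second-set shKBTBD8 in the additive fit and at hES. A group left with 1 library was assumed to vary like the others. For the 4 identifiers, 21 values fell short of the threshold that the reported one passed, 29 passed where the reported one did not and 1411 kept their side. The footprint difference of uc001usb.3 at ND3 passed by DESeq2, with the replicate block, without shKBTBD8 replicate 1 and without shControl replicate 2 of that stage.

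With the replicate number as a block, 6 members were lower at ND1 in shKBTBD8 mRNA (1), 5 were called for shKBTBD8 against shControl mRNA at ND1 (2), 11 at ND3 (5) and 2 at ND6 (0) in footprints, 1 for footprints relative to mRNA in shControl cells (0) and 26 for the difference of the ND3 change (15). The number pairs samples only by name: deviations of same-numbered libraries had a median correlation of 0.242 in mRNA (-0.0714 to 0.812, 28 pairs of groups) and 0.0906 in footprints. The shallowest footprint library had 2.31 M counts, and in it 19 members had none.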
